A study of Mus musculus with 6 samples.

Results

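The light chain V segments are the genes that encode most of the variable domain of the immunoglobulin kappa and lambda light chains. They were taken as every gene symbol that begins with Igkv or Iglv, which gave 163 of the 55484 genes in the table. Of these, 160 are Igkv segments of the kappa locus on chromosome 6 and 3 are Iglv segments of the lambda locus on chromosome 16. GENCODE vM21 lists 103 of them as V genes and 60 as V pseudogenes. RNA of femoral bone from male wild-type C57BL/6 mice on a normal chow diet was sequenced in 6 libraries. The ND/SED group (3 libraries) came from sedentary mice kept singly in a cage without a wheel, and the ND/WCR group (3 libraries) from mice kept singly with free access to a running wheel. Housing began at 6 weeks of age and lasted 6 weeks, so both groups were 12 weeks old at sampling. The deposited tables hold 1 pooled value per group, so the spread between mice is not known, a single mouse behind a difference cannot be seen, and every call below is the authors' own.

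A B cell makes its light chain gene by cutting and joining DNA: the RAG recombinase joins 1 V segment to 1 joining (J) segment, and the joined V and J exons are then spliced to a constant exon. In the mouse most antibodies carry a kappa chain and few carry a lambda chain. Kappa segments that lie on the same strand as the constant gene Igkc join by deletion of the DNA in between, and those on the other strand join by inversion. B cells of several stages live in bone marrow, and plasma cells, which secrete antibody, hold far more light chain RNA per cell than resting B cells do. V segments are read from RNA as families of related sequence, numbered between the prefix and the hyphen.

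Members of a family can differ by a few bases, which matters for every value below, since a fragment from a shared stretch cannot be assigned to 1 gene. The coding part of the V exon, up to its first 300 bases, is shown for 2 pairs (GENCODE vM21, GRCm38, 5′ to 3′ on the gene's strand). Capitals mark the bases at which the members of a pair differ. Igkv17-127 (chr6:67861362-67861659, plus strand) and Igkv17-121 (chr6:68037021-68037318, plus strand) are shown because their log2 folds had opposite signs although they differ at 6 of 298 bases.
Igkv17-127: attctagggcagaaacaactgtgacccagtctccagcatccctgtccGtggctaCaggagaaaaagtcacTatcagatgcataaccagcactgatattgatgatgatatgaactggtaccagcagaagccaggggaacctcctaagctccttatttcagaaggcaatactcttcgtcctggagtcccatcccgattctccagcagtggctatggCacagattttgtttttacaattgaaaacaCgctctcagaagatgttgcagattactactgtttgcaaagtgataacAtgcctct
Igkv17-121: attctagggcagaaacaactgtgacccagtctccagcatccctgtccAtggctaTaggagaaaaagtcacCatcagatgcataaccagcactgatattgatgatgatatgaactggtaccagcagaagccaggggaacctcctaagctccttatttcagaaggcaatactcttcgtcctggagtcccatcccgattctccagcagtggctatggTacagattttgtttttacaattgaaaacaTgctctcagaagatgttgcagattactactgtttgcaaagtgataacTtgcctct

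Iglv1 (chr16:19085022-19085321, minus strand) and Iglv2 (chr16:19260406-19260705, minus strand) carry nearly all of the lambda signal. They differ at 9 of the 305 bases of that exon part.
Iglv1: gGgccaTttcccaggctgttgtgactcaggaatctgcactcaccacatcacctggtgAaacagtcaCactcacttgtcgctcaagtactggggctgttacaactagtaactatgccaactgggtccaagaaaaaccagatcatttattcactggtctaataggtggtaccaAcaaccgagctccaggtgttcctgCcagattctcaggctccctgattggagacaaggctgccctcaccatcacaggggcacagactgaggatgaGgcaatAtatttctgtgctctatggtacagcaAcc
Iglv2: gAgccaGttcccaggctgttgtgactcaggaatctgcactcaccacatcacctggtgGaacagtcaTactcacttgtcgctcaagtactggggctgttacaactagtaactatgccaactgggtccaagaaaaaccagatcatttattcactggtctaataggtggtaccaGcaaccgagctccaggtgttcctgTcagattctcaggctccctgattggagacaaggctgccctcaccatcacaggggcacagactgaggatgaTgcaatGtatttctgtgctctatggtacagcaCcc

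Light chain V segments were lower in the running mice, in both chains and over most of the kappa families. Of the 163 segments, 58 were listed at 0 in both groups (52 of them pseudogenes), 14 were above 0 but were not tested by the authors, and 91 were tested. Among the 91, 23 were called lower and 0 higher, where a call is a q-value under 0.05 (the authors' deposited table). Over all 15508 genes tested, 0.941% were called, 0.497% lower and 0.445% higher, against 25.3% of the tested segments called lower. The median log2 fold of the tested segments was -0.95, and 75 of 91 lay below 0. Log2 folds compare running with sedentary mice after 0.1 was added to each FPKM, the number of fragments scaled to transcript length and library depth. Over all tested genes the median was -0.01, with 51.8% below 0. With p under 0.05 before adjustment, 42 of the 91 segments were lower and 2 higher in the authors' deposited table. Among all 15508 tested genes, 345 were lower and 531 higher by that cutoff, 5.65% in either direction. Summed over all members, the level in running mice stood at 0.471 of the sedentary value (2633 and 1241 FPKM). In bulk RNA such a difference can come from fewer B lineage cells or from less light chain RNA per cell, which cannot be told apart.

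The authors' intervals of the 2 groups did not overlap for 25 of the 91 tested segments, all lower in running mice, against 0.4% of all tested genes in the lower and 0.174% in the higher direction. Among the 25 were 21 of the 23 calls, all but Igkv14-111 and Igkv5-45. The smallest q in the authors' deposited table, 0.00718, was shared by 108 genes, of which 20 were light chain V segments. Called segments had log2 folds from -3.26 to -1.12, with a median of -1.92. Calls lay at high levels: 22 of the 23 were among the 46 segments with a mean of at least 10 FPKM over the groups, whereas the medians of the 46 segments above and the 45 tested segments under that level were alike, at -0.98 and -0.95.

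**Figure D1:**
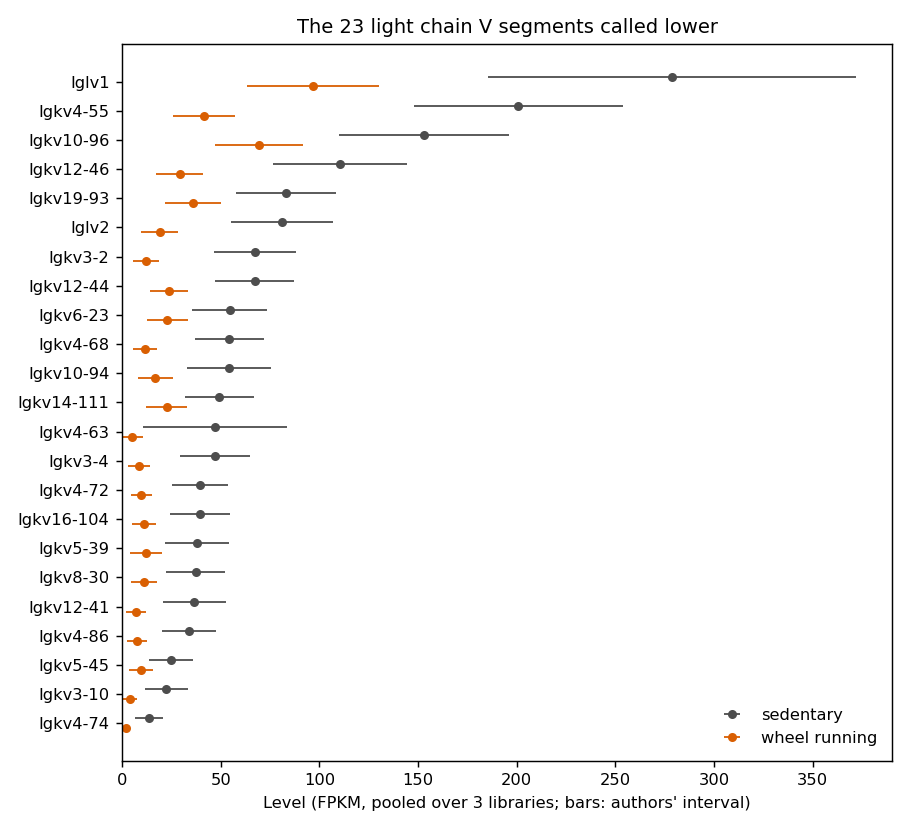
Levels of the 23 light chain V segments called lower (x axis, FPKM, 1 pooled value per group of 3 libraries; bars are the authors' interval), sedentary in grey and wheel running in orange. In every segment the running value lies to the left, and the intervals overlap for Igkv14-111 and Igkv5-45 alone.

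Of the 3 lambda segments 2 were called lower. Iglv1, which is usually joined to the J segments of the constant genes Iglc1 or Iglc3, fell from 279 FPKM (interval 185 to 372) in sedentary to 96.8 FPKM (63.2 to 130) in running mice. Its log2 fold was -1.52, and its intervals were apart. Iglv2, usually joined to the J segment of Iglc2, fell from 81.0 (55.2 to 107) to 18.9 FPKM (9.69 to 28.2), a log2 fold of -2.09. Both had the smallest q in the authors' deposited table, 0.00718. Iglv3 is divergent in sequence: its closest match among the members was the kappa segment Igkv4-86, at 56.2% identity. Iglv3 stood at 11.9 (5.54 to 18.2) and 6.32 FPKM (2.004 to 10.6) and was not called (q of 0.499 in the authors' deposited table). The sum of the 3 segments went from 372 to 122 FPKM, 0.329 of the sedentary value.

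All 4 constant genes that were tested had negative log2 folds, and 3 were called lower. Iglc1 fell from 135 (83.5 to 186) to 45.0 FPKM (25.4 to 64.6), a log2 fold of -1.58, close to that of Iglv1. Iglc2 fell from 90.0 (69.3 to 111) to 49.1 FPKM (36.7 to 61.5), a log2 fold of -0.87, smaller in size than that of Iglv2. Iglc3 stood at 57.9 (24.0 to 91.9) and 38.3 FPKM (19.1 to 57.5) and was not called. The kappa constant gene Igkc fell from 1815 (1452 to 2179) to 1073 FPKM (874 to 1272), a log2 fold of -0.76. The q of Igkc, Iglc1 and Iglc2 in the authors' deposited table was 0.00718. Iglc4 and all 9 joining genes of the list were listed at 0 in both groups. As each joined V segment carries a joining segment, the zeros of the joining genes cannot be read as absence of their RNA. The ratio of summed Igkv to summed Iglv was 6.09 in sedentary and 9.17 in running mice, and that of Igkc to the sum of Iglc1, Iglc2 and Iglc3 was 6.42 and 8.10. Both ratios were higher in the running mice, and neither carries an error.

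**Figure D2:**
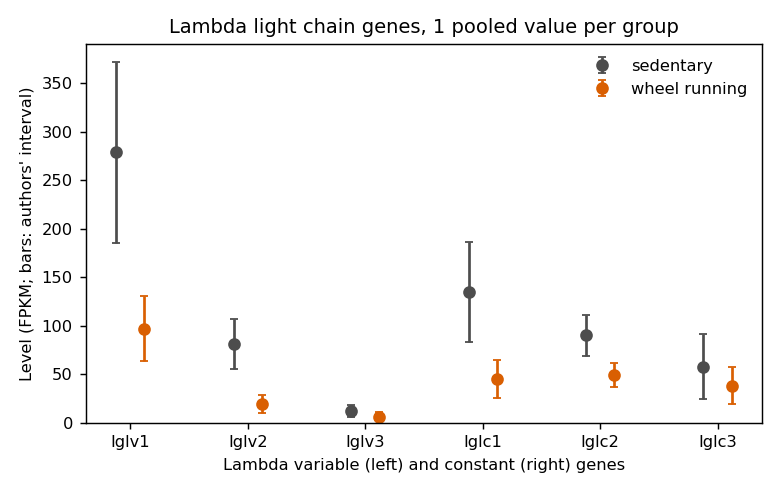
Levels of the 3 lambda V segments and 3 lambda constant genes (y axis, FPKM, 1 pooled value per group; bars are the authors' interval). The intervals of Iglv1, Iglv2, Iglc1 and Iglc2 do not overlap between sedentary (grey) and running (orange) mice, and those of Iglv3 and Iglc3 do.

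Summed over the 160 kappa segments, the level went from 2261 to 1119 FPKM, 0.495 of the sedentary value. The 21 called segments went from 1274 to 373 FPKM and made up 78.9% of the difference. As the calls pick segments by their fall in these same values, that large part follows in some measure from the choice. The remaining Igkv segments went from 987 to 747 FPKM. The largest single fall was that of Igkv4-55 (chr6:69607275-69607828), from 201 FPKM (148 to 254) to 41.6 FPKM (25.9 to 57.3), a log2 fold of -2.27, which accounted for 13.9% of the kappa difference. It ranked 1st among kappa segments in sedentary mice and 5th in running mice. Igkv10-96 fell from 153 (110 to 196) to 69.2 FPKM (47.0 to 91.5) and ranked 2nd in both groups. Igkv12-46 fell from 110 (76.5 to 144) to 29.1 FPKM (17.2 to 40.9) and Igkv19-93 from 83.1 (57.6 to 109) to 35.8 FPKM (21.5 to 50.1). The most abundant kappa segment of the running mice was one that did not pass the test: Igkv1-117 stood at 79.8 (58.4 to 101) and 82.1 FPKM (59.6 to 104). The ratio of Igkv4-55 to Igkv1-117 was 2.52 in sedentary and 0.507 in running mice.

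Across the 91 tested segments, the order of levels was largely shared between the groups (Spearman's rho 0.85 over segments, a description, since the segments share libraries and depth). The 10 most abundant kappa segments held 41.8% of the kappa total in sedentary and 42.5% in running mice. The effective number of kappa segments, the exponential of the Shannon entropy of their shares, was 49.8 and 50.4. The evenness of segment use was thus close in both pooled groups while the total differed. Levels above 0 were listed for 98 kappa segments in sedentary and 95 in running mice, and levels of at least 10 FPKM for 49 and 36.

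**Figure D3:**
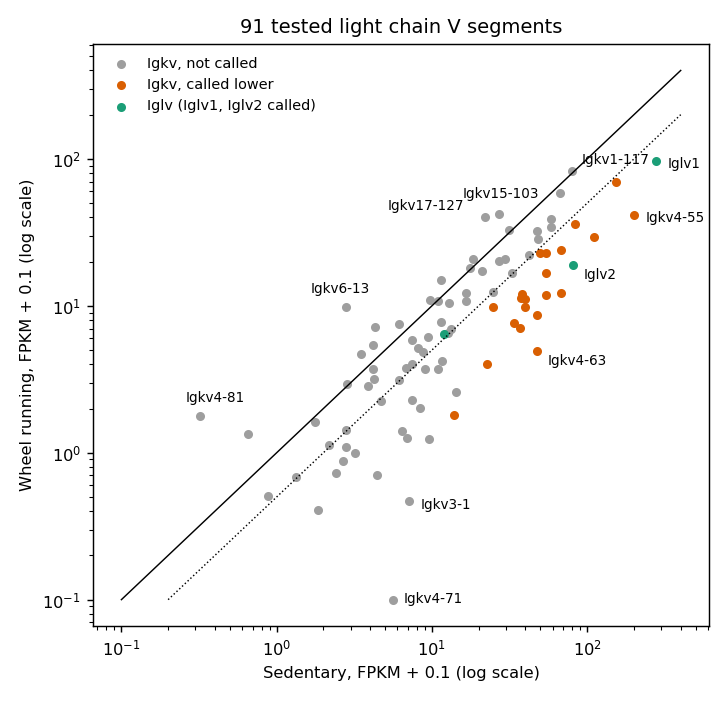
Each point is 1 of the 91 tested segments, with its sedentary level on the x axis and its running level on the y axis (FPKM + 0.1, both log scales). The solid line marks equal levels and the dotted line a running level of 0.5 times the sedentary one. Called segments (orange, and Iglv1 and Iglv2 in green) lie below the solid line, while Igkv1-117 lies on it and Igkv17-127 and Igkv15-103 above it.

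The families differed in how far they fell. Igkv4 was the largest, with 33 segments, 26 of them annotated as functional. Of its 24 tested members 6 were called lower (Igkv4-55, Igkv4-63, Igkv4-68, Igkv4-72, Igkv4-74 and Igkv4-86), and its share of the kappa total was 26.2% in sedentary and 17.1% in running mice. The family sum stood at 0.324 of its sedentary value, and at 0.384 without Igkv4-55. Igkv4-63 fell from 47.2 (10.5 to 83.8) to 4.82 FPKM (0 to 10.4), the largest fall of any call, with a log2 fold of -3.26 and intervals that only just missed each other. Igkv4-74 fell from 13.7 (6.62 to 20.7) to 1.72 FPKM (0 to 3.57). Igkv4-68 fell from 54.3 (36.8 to 71.9) to 11.7 FPKM (5.44 to 17.9), with a log2 fold of -2.21, near that of Igkv4-55. Within the family 2 of the 24 tested members had a positive log2 fold, Igkv4-50 (4.21 and 7.08 FPKM) and Igkv4-81 (0.222 and 1.68 FPKM), neither of them called.

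Igkv3 lay furthest below its sedentary level among the families with 3 or more tested members. All 7 tested members had a negative log2 fold, with a median of -2.45, and the sum went from 183 to 43.7 FPKM, 0.239 of the sedentary value (0.275 without Igkv3-2). Igkv3-2 fell from 67.5 (46.7 to 88.3) to 12.0 FPKM (5.45 to 18.6), Igkv3-4 from 47.0 (29.3 to 64.8) to 8.52 FPKM (2.96 to 14.1) and Igkv3-10 from 22.4 (11.5 to 33.4) to 3.89 FPKM (0.354 to 7.42). The segment nearest to the J segments, Igkv3-1, had the lowest ratio of the family, 7.05 (1.95 to 12.2) and 0.366 FPKM (0 to 0.836), but was not called, with a q of 0.9997 in the authors' deposited table. Igkv12, with 3 of 6 tested members called (Igkv12-46, Igkv12-44 and Igkv12-41), had a ratio of 0.322. Igkv10, with 2 of 3 called (Igkv10-96 and Igkv10-94), had a ratio of 0.416, and Igkv5, with 2 of 4 called (Igkv5-39 and Igkv5-45), had one of 0.481. The single tested members of Igkv16 and Igkv19 were also called: Igkv16-104 fell from 39.4 (24.0 to 54.8) to 11.0 FPKM (4.85 to 17.2).

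The sums of other families stayed closer to their sedentary level. Igkv1 had 0 calls among 7 tested members, and its share of the kappa total was 9.37% in sedentary and 15.0% in running mice. Its family sum stood at 0.794 of the sedentary value, and at 0.653 without Igkv1-117. Igkv1-110, the next most abundant member, stood at 58.7 (41.1 to 76.3) and 39.0 FPKM (25.4 to 52.6). Igkv6 had 1 call among 9 tested members, Igkv6-23, which fell from 54.5 (35.7 to 73.4) to 22.9 FPKM (12.7 to 33.2), and the median log2 fold of the family was 0.04. Without Igkv6-23 the sum of the other Igkv6 members stood at 0.957 of the sedentary value. Igkv8 also had 1 call among 9, Igkv8-30, while its most abundant member Igkv8-27, at 66.6 (43.4 to 89.8) and 58.4 FPKM (36.4 to 80.5), did not pass the test. The Igkv8 sum stood at 0.668 of the sedentary value, and at 0.532 without Igkv8-27. Its median log2 fold was -0.77, with 7 of 9 below 0. The Igkv14 sum stood at 0.625 of the sedentary value, with a median log2 fold of -0.87. In it, Igkv14-111 fell from 49.3 (31.8 to 66.8) to 22.6 FPKM (12.3 to 32.9), and the rest of the family stood at 0.879 of its sedentary sum. Of that rest, Igkv14-126 stood at 18.3 and 20.8 FPKM, while Igkv14-130 and Igkv14-100 were at 0.551 and 0.533 of their sedentary levels.

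Among the 16 tested segments with a positive log2 fold none was called. The highest of these in running level, apart from Igkv1-117, were Igkv15-103 and Igkv17-127, and Igkv15-103 was singled out after its values were seen. Igkv17-127 stood at 21.8 (11.4 to 32.2) in sedentary and 40.1 FPKM (24.6 to 55.7) in running mice, a log2 fold of 0.88 with overlapping intervals and a q of 0.0666 in the authors' deposited table. Its near copy Igkv17-121, shown above, stood at 16.5 (7.97 to 25.02) and 12.1 FPKM (5.01 to 19.1). Their summed level, which does not change if fragments trade between the pair, was 38.3 FPKM in sedentary and 52.2 FPKM in running mice. Igkv15-103 stood at 26.8 (15.5 to 38.2) and 41.8 FPKM (26.6 to 56.9), with a q of 0.336 in the authors' deposited table. It ranked 30th among kappa segments in sedentary and 4th in running mice, and Igkv17-127 ranked 34th and 6th. The largest positive log2 folds among segments of at least 1 FPKM in a group were those of Igkv4-81 (2.46), Igkv6-13 (1.80), Igkv8-34 (1.02), Igkv17-127 and Igkv4-50 (0.73). With 1 FPKM added in place of 0.1, that of Igkv4-81 was 1.13 and that of Igkv8-34 was 0.52, so Igkv6-13 (1.52) came first and Igkv8-34 came after Igkv17-127 (0.85) and Igkv4-50 (0.63). Igkv6-13 stood at 2.71 (0.805 to 4.61) and 9.65 FPKM (2.84 to 16.5), and Igkv8-34 at 0.558 and 1.23 FPKM.

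**Figure D4:**
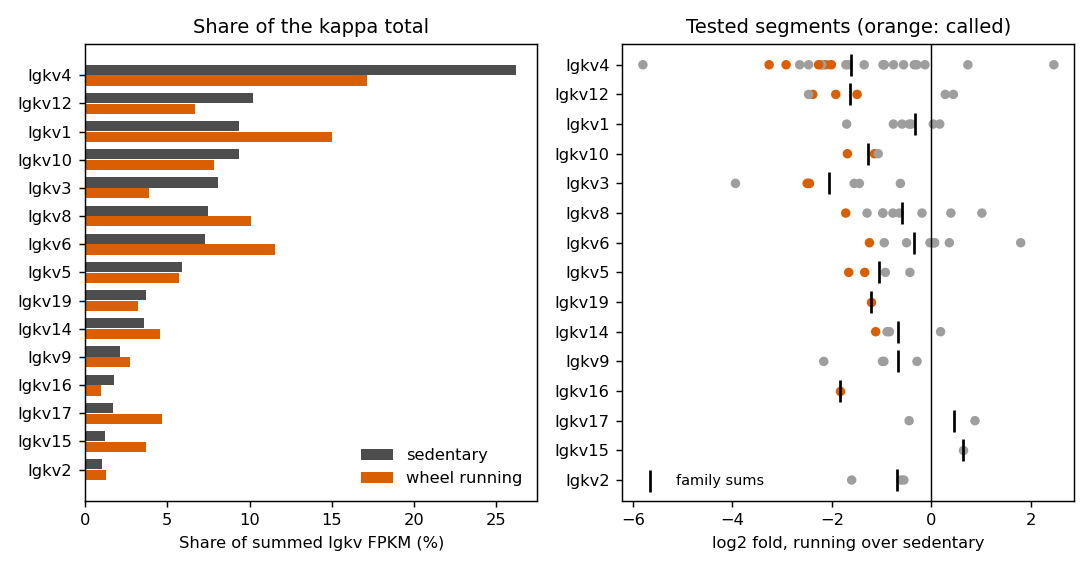
Left, share of the summed Igkv FPKM (x axis, percent) held by each V family with at least 1% of the sedentary total, sedentary in grey and running in orange. Right, log2 fold of each tested segment by family (orange where called lower) with a black bar for the ratio of family sums. The share of Igkv4 goes from 26.2% to 17.1% and that of Igkv1 from 9.37% to 15.0%.

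Along the kappa locus the calls lay within 2500 kb of the J segments. Distance was taken from the end of a segment nearest to Igkj1, which starts at position 70722562 of chromosome 6, and the locus was divided into stretches of 500 kb. In the first 5 stretches, up to 2500 kb, the summed level in running mice was 0.498, 0.457, 0.339, 0.419 and 0.533 of the sedentary level, from the nearest stretch outward. The calls in these stretches numbered 4 of 17, 6 of 16, 4 of 15, 3 of 14 and 4 of 11 tested segments. In the stretch from 2500 to 3000 kb, which holds Igkv1-117 and the Igkv17 pair, 0 of 13 tested segments were called. Its summed level stood at 0.930 of the sedentary value (0.871 without Igkv1-117), with Igkv17-127 at 21.8 and 40.1 FPKM. Still, 10 of the 13 had a negative log2 fold, and the median was -0.45. That stretch held 9.36% of the kappa total in sedentary and 17.6% in running mice. The 2 tested segments beyond it, Igkv1-135 and the outermost one, Igkv2-137, gave a ratio of 0.598 together with the untested ones. Igkv2-137 stood at 9.28 (1.78 to 16.8) and 6.03 FPKM (0.554 to 11.5). With 1 pooled value per group, the difference between stretches or between families could not be tested, since segments are not replicates.

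By orientation, 16 of 55 tested segments on the strand opposite to Igkc were called and 5 of 33 on the same strand. The summed level stood at 0.439 of the sedentary value for the opposite strand and at 0.627 for the same strand. Orientation follows position and family: the tested Igkv3 segments next to the J segments and most tested segments beyond 2000 kb lie on the strand of Igkc, and all members of Igkv4 that were called lie on the other. Of the 60 pseudogenes 1 was tested, Igkv4-77, at 2.08 and 1.03 FPKM. All 23 calls were of segments annotated as functional.

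**Figure D5:**
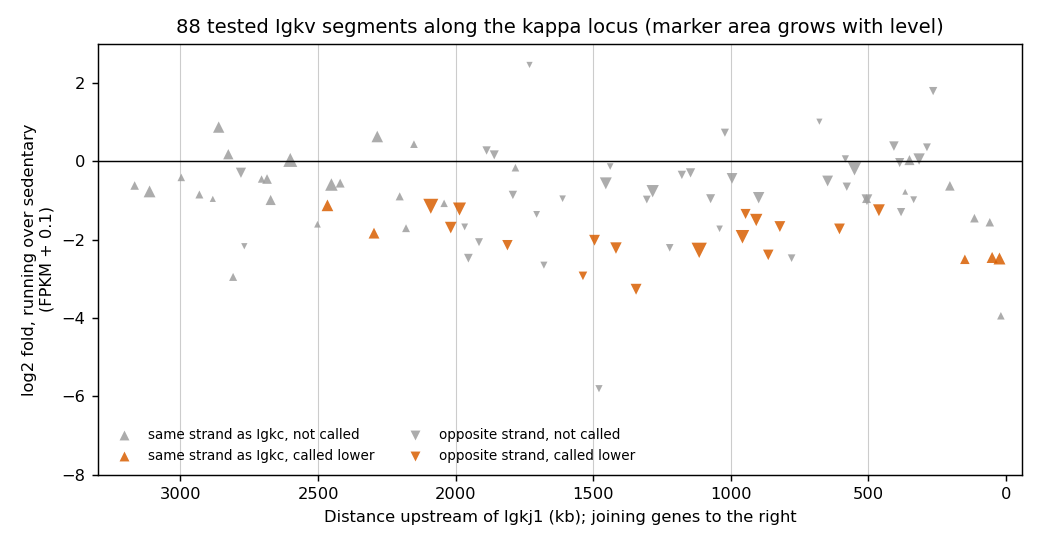
Log2 fold of the 88 tested Igkv segments (y axis, running over sedentary, on FPKM + 0.1) against distance upstream of Igkj1 (x axis, kb, J segments to the right). Triangles point up for segments on the strand of Igkc and down for the other strand, orange marks calls, and size grows with mean level. No segment between 2500 and 3000 kb is called.

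Near copies set a limit to single values. For the 47 tested segments with another V segment of at least 95% identity in the V exon, 12 of the 23 calls included, fragments may be shared with that copy. Windows of 50 bases found in no other annotated gene made up under 50% of the transcript in 17 tested segments, of which 3 were called (Igkv4-55, Igkv3-10 and Igkv5-45). Of 25 tested pairs of closest relatives with at least 95% identity, 19 had negative log2 folds in both members. The median gap in log2 fold within these pairs was 0.65. Leaving out the pair with Igkv4-71, which was listed at 0 in running mice, the largest gap was 3.04, between Igkv6-13 and Igkv6-23. The most similar pair, Igkv5-43 and Igkv5-45 (99.0% identity), had log2 folds of -0.93 and -1.34. Iglv1 overlaps an annotated gene on the other strand, 2010309G21Rik, which was listed at 0 in both groups. Igkv2-137 overlaps an annotated gene on its own strand, Gm42889, also listed at 0 in both groups. Fragments from that overlap cannot be told apart by strand.

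Some segments with large folds were not called although their test statistic was large. A total of 36 tested segments had a statistic in the authors' deposited table past the normal 0.05 point in size, against 1.19% of all tested genes. For 5 of these 36 the p was nevertheless at least 0.05, which held for 16 genes, or 0.103%, of the whole table. The 5 were Igkv3-1 (p 0.246 in the authors' deposited table), Igkv11-125 (p 0.119), Igkv4-79 (p 0.0602), Igkv6-13 (p 0.160) and Igkv1-99 (p 0.178). The sources used here do not say how that p was computed.

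The heavy chain V segments, the closest group of genes, had a median nearer to 0. Of 94 tested Ighv segments 12 were called lower and 0 higher, with a median log2 fold of -0.63, and their sum went from 1537 to 828 FPKM, 0.538 of the sedentary value. Whether the chains differ was not tested, for want of single libraries.

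Genes that mark the cells which carry light chains, and genes for making them, had medians nearer to 0. None of 20 genes of light chain rearrangement and transcription was called (median -0.14, 18 below 0). The recombinase gene Rag1 stood at 15.8 (12.6 to 19.1) and 12.3 FPKM (9.68 to 14.8), and Irf4, a transcription factor that acts at the light chain enhancers and in plasma cells, at 13.5 (10.6 to 16.4) and 10.2 FPKM (7.99 to 12.3). The surrogate light chain genes of precursor B cells stood at 26.9 and 26.9 FPKM (Igll1) and at 22.7 and 21.9 FPKM (Vpreb1). None of 20 genes of antibody folding and secretion was called (median -0.13, 16 below 0). The chaperone gene Hspa5 stood at 235 and 214 FPKM. These lists overlap with the marker lists below and are not separate evidence. Rag1, Rag2, Dntt, Igll1, Vpreb1, Vpreb2 and Vpreb3 are also precursor B cell markers, and Irf4, Fkbp11 and Derl3 also plasma cell markers.

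Of 12 plasma cell markers 1 was called, Jchain, which joins secreted IgM and IgA and fell from 169 (137 to 201) to 104 FPKM (84.4 to 123). The summed level of that list went from 396 to 300 FPKM, with 11 of 12 log2 folds below 0 and none of its markers at 0. The largest part of that difference was the fall of Jchain, and the median log2 fold of the list was -0.25. The sums of the other B lineage lists went from 223 to 207 FPKM for 10 precursor B cell markers, from 581 to 534 FPKM for 12 mature B cell markers and from 30.5 to 29.0 FPKM for 6 germinal centre markers, with 0 calls in each. Among the other cell types of the femur, the summed level of 10 neutrophil markers went from 52860 to 44895 FPKM, that of 7 T cell markers from 25.3 to 26.2 FPKM, that of 5 erythroid markers from 8654 to 9165 FPKM and that of 6 osteocyte markers from 328 to 413 FPKM, with Sost and Mepe called higher and Fgf23 lower. The plasma cell list was not alone in leaning down. Log2 folds lay below 0 for 9 of 10 precursor, 11 of 12 mature and 4 of 5 tested germinal centre B cell markers. They did so for 10 of 10 neutrophil, 2 of 7 T cell, 2 of 5 erythroid and 1 of 5 tested osteocyte markers. The osteocyte marker Pdpn was listed at 0 in both groups. The tissue labelled femoral bone thus held RNA of osteocytes and of marrow cells in both groups. The part of shifts in cell makeup in the fall of light chain V segments was not tested.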

How the data were processed

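The authors' deposited tables were read as they stand. They hold 1 FPKM per gene and group with interval bounds of unstated level. For each gene the deposited table adds a log2 fold, a score used as test statistic, a p-value and a q-value. The layout is that of Cuffdiff, per the file headers. Tools in the submitters' processing notes are HISAT2 2.2.1, Cufflinks 2.2.1, SAMtools 1.10 and Trimmomatic 0.39, with build GRCm38. The sources used here do not say how fragments were handled that match several segments, cross a V to J join or carry somatic mutations.

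From these values, log2(FPKM + 0.1) folds, sums, shares and medians were computed (Python 3.11.15, pandas 2.3.3). Of this code, only the log2 fold and the q-value adjustment were tested on simulated data. Totals leave out 5 genes of status HIDATA. A call is the authors' q under 0.05 among 15508 tested genes. Annotation and transcript sequences are GENCODE vM21 (GRCm38), matched by Ensembl ID for 163 of 163 segments. Identity is edit distance over the V exon's coding part (edlib 1.3.9.post1). The design text counts 3 mice per group. Fragment counts were not used, as the tables give FPKM. Steps between the lowest FPKM of single-exon genes longer than 1500 bases (less 250 bases) put library depths near 14.2, 14.5 and 16.4 (sedentary) and 13.7, 17.1 and 17.3 (running), each times 1e6 fragments. For a transcript of 358 bases, the median length of the members, the smallest value above 0 was 0.189 FPKM in sedentary and 0.180 in running mice. Among tested segments with a mean of at least 10 FPKM, the half-width of the authors' interval had a median of 40.2% of the level in sedentary and 49.8% in running mice, against 26.3% and 26.2% over all tested genes of that level.

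The members and gene lists were chosen with earlier results of these data known. Segments were named by rule: all calls, all Iglv, the 10 highest in mean FPKM, the 3 highest uncalled, the 5 largest folds each way with at least 1 FPKM in a group, and both ends of the kappa locus. Of the listed genes 1, Ahsp, had no match. Relatives of named segments and segments singled out in the text (Igkv15-103, Igkv17-121, Igkv5-43, Igkv1-135, Igkv4-77, Igkv4-91 and those with a large test statistic) were added after their values were seen.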

Additional observations from a re-analysis of the deposited data

How the results depend on the processing

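No paired analysis was possible because each group has a single pooled column, with no replicate number. The planned fits on single libraries and without each replicate were not run for the same reason. The count of 23 segments called lower ranged from 20 (q under 0.01) to 28 (q under 0.1) over the alternatives that reuse the authors' q, and 34 lay past the normal 0.05 point by test statistic whatever the p. The count called higher was 0, but 1 with q under 0.1 (Igkv17-127) and 2 by the test statistic alone. The median log2 fold of -0.95 became -0.83 with a pseudocount of 1 FPKM, and the log2 fold of Igkv3-1 went from -3.94 to -2.56. Equal totals in both groups would add 0.04 to each log2 fold, and centring on the median gene 0.01. The summed Igkv ratio ranged from 0.494 to 0.523 and the Iglv ratio from 0.329 to 0.338. By the inverse Simpson index the effective number was 33.9 in sedentary and 35.8 in running mice. Without Igkv4-55 the share of Igkv4 was 18.99% and 13.95%. The cutoffs on windows found in no other gene, on the test statistic alone and on segments listed at 0 were chosen after seeing the data.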

Other observations

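Intervals were also apart for 4 tested but uncalled segments, all lower in running mice: Igkv3-1, Igkv11-125, Igkv4-71 and Igkv4-91. Among untested segments, Igkv12-47 and Igkv3-9 were listed at 0 in sedentary mice. They stood at 0.485 and 0.535 FPKM in running mice, with intervals above 0. Igkv11-125 stood at 9.47 (3.10 to 15.8) and 1.14 FPKM (0.00592 to 2.28). Igkv4-71 stood at 5.48 FPKM (2.39 to 8.57) in sedentary mice and was listed at 0 in running mice. Igkv4-91 stood at 14.2 (6.46 to 22.0) and 2.49 FPKM (0 to 5.25), with a q of 0.0630 in the authors' deposited table.

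Summed V segments were set against the constant genes they are spliced to. Summed Igkv over Igkc was 1.25 in sedentary and 1.04 in running mice, and summed Iglv over the sum of Iglc1, Iglc2 and Iglc3 was 1.31 and 0.922. Within the lambda genes the V ratio and the constant gene ratio differed in direction. Iglv1 over Iglv2 was 3.44 in sedentary and 5.11 in running mice, whereas Iglc1 over Iglc2 was 1.496 and 0.917. The ratios are not fully alike, as Iglv1 is also joined to the J segment of Iglc3, which the latter leaves out. These ratios carry no error, and Iglc1, Iglc3 and Iglv1 share 1 locus entry in the authors' table.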
